A study of Rattus norvegicus with 12 samples.

Results

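The TNF superfamily of ligands and receptors was followed in 12 libraries of polyadenylated RNA from rat ovarian theca-interstitial cells, the steroid-making cells of the follicle wall and stroma. Rows of the count table were taken when the symbol was Tnf, or began with Tnfsf or Tnfrsf and a number, and when at least 20 counts stood in the 12 libraries together. This gave 27 rows, 10 ligands and 17 receptors, of 30045 rows in the table. The cells came from wild-type female Sprague Dawley rats at postnatal day 30 and grew on plates coated with human fibronectin. Cultures were given vehicle (Control), rat IL-1β or LPS, the endotoxin of Gram-negative bacteria, and were harvested after 48 h, with 4 libraries in each group. LPS was used at 1 µg/ml. The labels put that dose after both agents, so the dose of IL-1β is not certain. They do not tell whether the 4 replicates of a group were separate isolations or wells of one, so every p-value below measures only the spread between these libraries. The cells were a primary isolate and not a clone, so other ovarian cell types can be present.

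TNF superfamily ligands are made as membrane proteins and act at the cell surface or after being cut free, and each is bound by one or a few receptors. Receptors with a death domain, such as TNFR1 and the TRAIL receptor DR5, can signal through caspases. Most others recruit TRAF adaptors and activate NF-kB, and decoy receptors such as osteoprotegerin bind ligand without signalling. In the ovary TNF is known as a product of macrophages and follicle cells that acts on steroid production and cell survival.

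Of the 27 rows, 21 held enough counts to be tested, 8 ligands and 13 receptors. Levels are given in CPM, the counts of a gene scaled to a common library total after TMM scaling, and a gene was called changed at an adjusted p under 0.05 in edgeR's quasi-likelihood test. With IL-1β 6 of the 21 rose, 5 fell and 10 were not past the threshold. That is 52.4% called, beside 47.7% of the 17330 genes tested (24.7% higher and 23% lower). With LPS 8 rose, 3 fell and 10 were not past it, again 52.4%, beside 42.5% of all genes (22.5% higher and 20% lower). In each comparison the 4 treated and 4 control libraries did not overlap for 11 of the 21, also 52.4%, beside 44.2% of all genes with IL-1β and 38.3% with LPS. Shares this near the background say nothing particular about the superfamily. The median log2 fold change of the 21 was -0.08 with IL-1β and 0.16 with LPS, and that of all genes 0.01 in both. At least 2-fold changes that passed the test were seen in 5 of the 21 with IL-1β (Tnfsf13b, Tnfsf18, Tnfrsf9, Tnfrsf26 and Tnfrsf14), beside 6.2% of all genes. With LPS they were seen in 3 (Tnfsf13b, Tnfsf15 and Tnfrsf9), beside 4.53%. Both comparisons use the same 4 control libraries, so their results are not independent of each other.

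**Figure D1:**
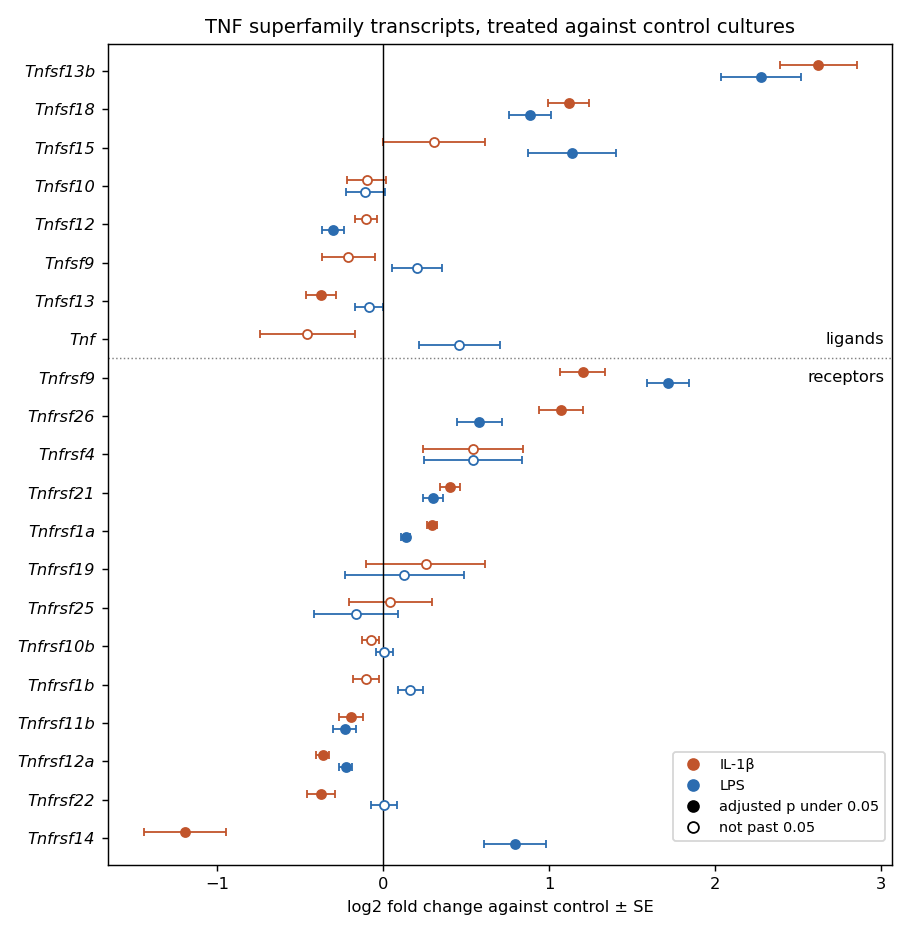
Log2 fold change against control with its SE (x axis) for the 21 superfamily genes tested, ligands above and receptors below the dotted line, with IL-1β in orange and LPS in blue. Filled points passed an adjusted p of 0.05. Tnfsf13b lies furthest to the right with both agents, and Tnfrsf14 lies left of 0 with IL-1β and right of 0 with LPS.

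Total counts per library ran from 20873934 to 32090924. Replicates of a group differed by more than counting noise in every pair, with a chi-square per degree of freedom of 1.82 to 5.21. This does not tell separate isolations from wells or library preparations of one. All 8 theca markers examined, among them Cyp17a1, Star and Lhcgr, were tested and had counts in each group. Their summed level was 240 to 270 CPM in control libraries, 622 to 671 with IL-1β and 474 to 531 with LPS. Star was the most abundant, and without it the sums were 113.3 to 116.2, 223.5 to 245.8 and 147.6 to 174.5 CPM in the same order. Cyp17a1 and Lhcgr were low in control libraries, with means of 0.537 and 2.02 CPM. Among the genes called with IL-1β, 51.7% were higher under TMM scaling and 64.1% with library size alone. With LPS these shares were 53% and 63.4%. No call among the superfamily changed direction between the scalings tried.

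The bases just upstream of 5 members are shown because these members had large changes or, for Tnfrsf22, because the gene lies beside Tnfrsf26 and moved the other way with IL-1β. The sequences are from RefSeq (build GRCr8, not the build of the counts), and each gives the 250 bases before the annotated gene start, 5′ to 3′ on the gene's strand. Capitals mark matches to GGGNNNNNCC, a loose form of the NF-kB site, and to TATANA, a loose TATA box, on either strand.
Tnfsf13b, chr16:86194500-86194749, minus strand: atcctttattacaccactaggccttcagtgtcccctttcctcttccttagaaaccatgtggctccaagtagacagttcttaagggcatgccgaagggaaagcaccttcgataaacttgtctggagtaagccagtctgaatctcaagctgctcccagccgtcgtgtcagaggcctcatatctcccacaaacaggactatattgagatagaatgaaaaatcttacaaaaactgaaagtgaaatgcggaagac
Tnfsf18, chr13:76366603-76366852, plus strand: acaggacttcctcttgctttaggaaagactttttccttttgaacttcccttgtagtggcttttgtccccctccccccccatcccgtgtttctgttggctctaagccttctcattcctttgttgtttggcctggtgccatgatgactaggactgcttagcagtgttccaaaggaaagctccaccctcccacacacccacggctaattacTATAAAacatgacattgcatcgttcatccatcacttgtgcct
Tnfrsf9, chr5:166664244-166664493, plus strand: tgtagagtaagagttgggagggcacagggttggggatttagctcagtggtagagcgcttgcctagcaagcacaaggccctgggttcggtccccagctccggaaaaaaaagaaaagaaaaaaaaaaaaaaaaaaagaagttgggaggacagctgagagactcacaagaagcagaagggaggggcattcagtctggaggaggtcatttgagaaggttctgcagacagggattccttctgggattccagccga
Tnfrsf26, chr1:208252431-208252680, minus strand: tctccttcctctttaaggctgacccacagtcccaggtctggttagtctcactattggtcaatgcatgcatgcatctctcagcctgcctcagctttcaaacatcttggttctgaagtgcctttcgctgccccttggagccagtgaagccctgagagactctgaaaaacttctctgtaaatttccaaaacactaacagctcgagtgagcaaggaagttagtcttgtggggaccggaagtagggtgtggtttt
Tnfrsf22, chr1:208285705-208285954, minus strand: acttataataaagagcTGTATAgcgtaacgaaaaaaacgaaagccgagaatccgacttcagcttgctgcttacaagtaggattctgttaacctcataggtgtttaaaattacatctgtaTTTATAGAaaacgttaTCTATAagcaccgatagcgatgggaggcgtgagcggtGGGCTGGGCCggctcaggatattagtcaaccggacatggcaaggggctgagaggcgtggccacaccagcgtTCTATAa
Tnfrsf22 has 2 annotated starts, of which the downstream one is shown. The windows of Tnfsf13b, Tnfrsf9 and Tnfrsf26 held none of these letters, that of Tnfsf18 held TATAAA ending 37 bases before the start, and that of Tnfrsf22 held 1 match to the loose NF-kB form and 5 to TATANA, some of them overlapping. A promoter was found for 16 of the 21 tested members. The stricter kappa-B consensus occurred in 0 of these 16, beside 3.54% of all 33469 promoters searched over the same length. GGGNNNNNCC, which takes in every match of the consensus, occurred in 7 of 16, beside 42.3%, and TATANA in 6 of 16, beside 24.2%. A member was counted when any of its starts had a match, while the shares are over single promoters. Tnfrsf22, with 2 starts, held GGGNNNNNCC only in the window shown. The AP-1 site TGANTCA occurred in 1 of 16, that of Tnfrsf1b, beside 6.34%. These counts describe letters in short windows and do not bear on which factors act there.

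The largest change among the ligands was in Tnfsf13b, which encodes BAFF, a survival factor for B cells. Its transcript stood at 0.317, 0.156, 0.390 and 0.395 CPM in the control libraries, at 1.88, 2.07, 2.01 and 1.88 CPM with IL-1β and at 1.76, 1.29, 1.32 and 1.78 CPM with LPS. Every treated library lay above every control library, and the lowest treated level was over 3 times the highest control level. IL-1β raised it 6.16-fold (log2 fold change 2.62 ± 0.23, where ± after a log2 fold change is the SE, with 4 libraries a group, adjusted p = 1.92e-10). LPS raised it 4.84-fold (2.28 ± 0.24, adjusted p = 7.52e-09). The row was low in control cultures, with 4 to 12 counts per library.

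The 3 receptors of BAFF were hardly detected. Tnfrsf13c, the BAFF receptor, had 1 to 5 counts per library and was kept but not tested. Tnfrsf13b, the receptor TACI, and Tnfrsf17, the receptor BCMA, had 12 and 8 counts in the 12 libraries together and were not kept. Tnfsf13 encodes APRIL, the closest relative of BAFF and a ligand of TACI and BCMA. It stood at 7.46, 7.92, 8.98 and 7.51 CPM in control libraries, at 6.34, 6.64, 5.38 and 6.11 CPM with IL-1β and at 7.24, 7.56, 8.11 and 6.96 CPM with LPS. The IL-1β libraries were the low ones and did not overlap the others, while control and LPS libraries overlapped. IL-1β lowered it by 22.8% (-0.37 ± 0.09, adjusted p = 0.00104), and with LPS its value was -0.08 ± 0.09 (adjusted p = 0.462). BAFF and APRIL transcripts thus went in opposite directions with IL-1β.

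Tnfsf18 encodes GITR ligand, which costimulates T cells. It stood at 3.33, 2.07, 2.49 and 2.60 CPM in control libraries, at 6.34, 5.88, 5.49 and 5.39 CPM with IL-1β and at 5.08, 4.27, 4.83 and 5.46 CPM with LPS. Treated and control libraries did not overlap with either agent. The rise was 2.17-fold with IL-1β (1.12 ± 0.12, adjusted p = 1.48e-08) and 1.85-fold with LPS (0.89 ± 0.13, adjusted p = 1.33e-06). The gene of its receptor, Tnfrsf18 (GITR), had 3 to 16 counts per library and was not tested. In the RefSeq table of GRCr8, Tnfsf18 lies directly beside Tnfsf4, the gene of OX40 ligand. Tnfsf4 had 3, 1, 0 and 4 counts in control libraries, 4, 3, 5 and 5 with IL-1β and 1, 1, 2 and 2 with LPS, too few for the test.

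Tnfsf15 encodes TL1A, a ligand known from endothelial and myeloid cells. It stood at 0.603, 0.351, 0.439 and 0.296 CPM in control libraries, at 0.576, 0.550, 0.512 and 0.470 CPM with IL-1β and at 1.02, 0.840, 0.624 and 1.26 CPM with LPS. The LPS libraries lay above all others, while IL-1β and control libraries overlapped. LPS raised it 2.20-fold (1.14 ± 0.27, adjusted p = 9.54e-04). With IL-1β its value was 0.31 ± 0.31 (adjusted p = 0.437). The gene of its receptor DR3, Tnfrsf25, stood at 0.978 ± 0.0852 CPM in control libraries (SD, n = 4), 1.00 ± 0.109 with IL-1β and 0.858 ± 0.425 with LPS. It was called with neither agent (0.04 ± 0.25 and -0.16 ± 0.25), and the LPS libraries, from 0.468 to 1.36 CPM, spread widest. Beside Tnfsf15 in the RefSeq table lies Tnfsf8, the gene of CD30 ligand, which had 3, 2, 0 and 0 counts in control libraries, 9, 3, 4 and 6 with IL-1β and 6, 5, 3 and 4 with LPS. These counts were too few for the test.

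Tnfsf12 encodes TWEAK and Tnfrsf12a its receptor Fn14. Tnfsf12 stood at 15.7, 17.1, 16.7 and 18.9 CPM in control libraries, at 14.6, 16.7, 16.2 and 16.3 CPM with IL-1β and at 14.4, 14.2, 12.5 and 14.3 CPM with LPS. The LPS libraries were below all others. LPS lowered it by 18.7% (-0.30 ± 0.07, adjusted p = 5.56e-04), and with IL-1β its value was -0.10 ± 0.07 (adjusted p = 0.212). Tnfrsf12a stood at 120, 126, 114 and 114 CPM in control libraries, at 88.9, 93.6, 94.5 and 92.4 CPM with IL-1β and at 93.2, 101, 109 and 103 CPM with LPS. All treated libraries lay below all control libraries. It fell by 22.2% with IL-1β (-0.36 ± 0.04, adjusted p = 4.27e-08) and by 14.5% with LPS (-0.23 ± 0.04, adjusted p = 4.74e-05). With LPS the transcripts of both partners were lower. Tnfsf12 and Tnfsf13 are neighbours in the RefSeq table and each overlaps Eif4a1l there. How reads in shared stretches were counted is not given in the sources used here, so small changes of this pair are less certain.

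Tnf itself was a low transcript. It stood at 0.920, 0.429, 0.830 and 0.560 CPM in control libraries, at 0.461, 0.296, 0.512 and 0.727 CPM with IL-1β and at 0.914, 0.980, 0.857 and 1.01 CPM with LPS, or 7 to 29 counts per library. Control libraries overlapped both treated groups, and neither treatment was past the threshold against control (adjusted p = 0.200 and 0.138). The LPS libraries did lie above every IL-1β library. Both receptors of TNF were detected. Tnfrsf1a, the gene of TNFR1, which carries a death domain, stood at 158, 158, 157 and 158 CPM in control libraries, at 191, 194, 194 and 196 CPM with IL-1β and at 177, 169, 166 and 181 CPM with LPS. The 3 groups did not overlap. The changes were small, 22.8% higher with IL-1β (0.30 ± 0.03, adjusted p = 1.01e-09) and 9.87% higher with LPS (0.14 ± 0.03, adjusted p = 2.90e-04). Tnfrsf1b, the gene of TNFR2, which lacks a death domain, stood at 11.2 ± 0.471 CPM in control libraries (SD, n = 4), 10.5 ± 0.907 with IL-1β and 12.6 ± 1.17 with LPS. Neither of these differences from control was called (-0.10 ± 0.08 and 0.16 ± 0.07, the latter with adjusted p = 0.0807). In the RefSeq table Tnfrsf1b overlaps LOC103692519, as Tnfrsf10b does Rhobtb2, so their counts carry the same doubt as those of Tnfsf12. The value of Tnfrsf1b with LPS was called without LPS replicate 2 (0.22, adjusted p = 0.0196) and with library size alone (0.20, adjusted p = 0.0277).

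**Figure D2:**
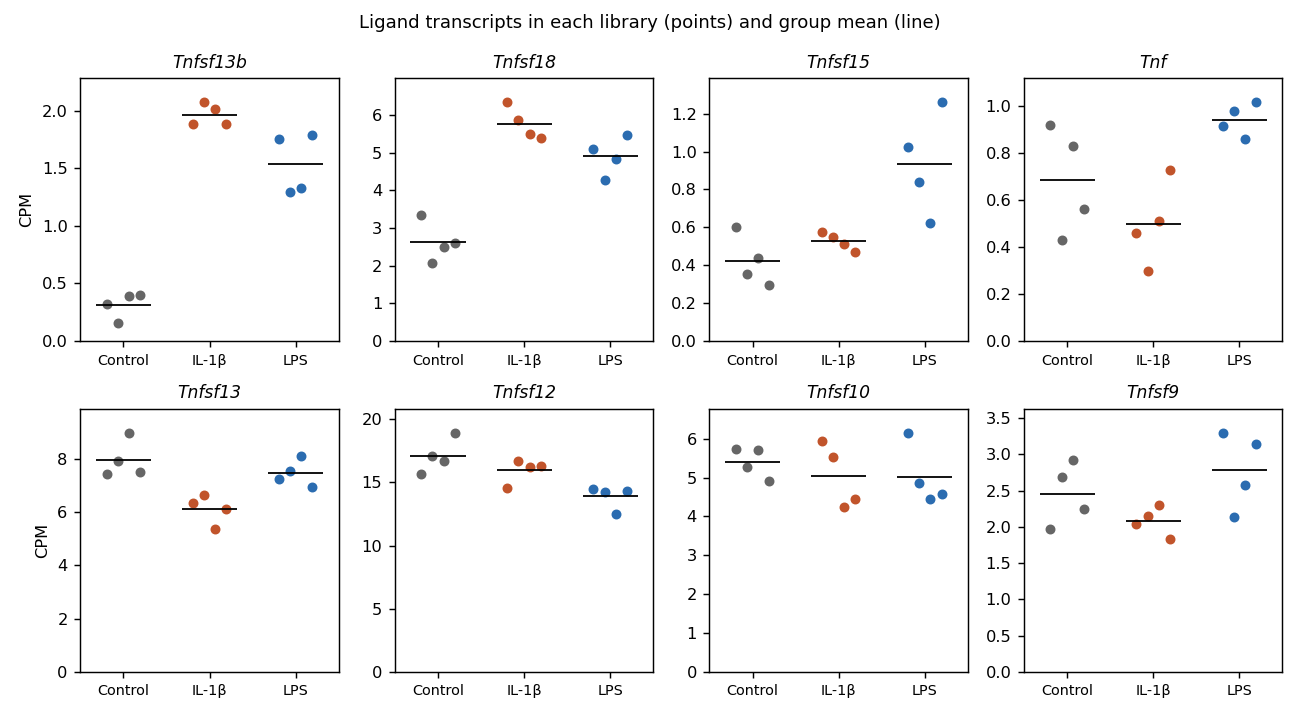
CPM (y axis, from 0) of 8 ligand transcripts in each library, with a point for each replicate in the order of its number and a line at the group mean. Tnfsf13b and Tnfsf18 are higher in all treated libraries, Tnfsf15 only in the LPS libraries, Tnfsf13 is lower with IL-1β and Tnfsf12 lower with LPS, while control libraries overlap both treatments in Tnf, Tnfsf10 and Tnfsf9.

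Among receptors Tnfrsf9 rose most. It encodes CD137, a costimulatory receptor of activated lymphocytes that is also known from endothelial and stromal cells under inflammation. It stood at 2.95, 3.67, 3.22 and 2.24 CPM in control libraries, at 5.76, 7.19, 6.33 and 8.38 CPM with IL-1β and at 10.02, 9.06, 9.12 and 11.1 CPM with LPS. The 3 groups formed 3 separate ranges, lowest in control and highest with LPS. IL-1β raised it 2.30-fold (1.20 ± 0.14, adjusted p = 9.43e-08) and LPS 3.29-fold (1.72 ± 0.13, adjusted p = 9.73e-11). The gene of its ligand, Tnfsf9, was called with neither agent, at 2.46 ± 0.434 CPM in control libraries (SD, n = 4), 2.08 ± 0.197 with IL-1β and 2.79 ± 0.535 with LPS.

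Tnfrsf14 was called in opposite directions by the 2 agents. It encodes HVEM, a receptor for LIGHT and for the lymphocyte inhibitor BTLA. It stood at 1.14, 1.29, 0.732 and 1.42 CPM in control libraries, at 0.384, 0.634, 0.439 and 0.598 CPM with IL-1β and at 1.61, 2.35, 2.22 and 1.96 CPM with LPS. All IL-1β libraries were below and all LPS libraries above the control libraries. It was 2.29-fold lower with IL-1β (-1.19 ± 0.25, adjusted p = 2.26e-04) and 1.74-fold higher with LPS (0.80 ± 0.19, adjusted p = 9.43e-04). The gene of LIGHT, Tnfsf14, had 6 counts in all and was not kept. It had 0 counts in each IL-1β library, which allows up to 0.128 CPM (3 counts) in the shallowest of them and covers counting error only.

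Tnfrsf26 and Tnfrsf22 are rodent receptors that lie side by side in the RefSeq table. The product of Tnfrsf22 is known in mice as a decoy for TRAIL. Tnfrsf26 stood at 2.70, 2.62, 2.00 and 2.67 CPM in control libraries, at 5.49, 6.17, 4.54 and 5.13 CPM with IL-1β and at 4.28, 4.27, 3.23 and 3.32 CPM with LPS. Treated libraries lay above control libraries throughout. The rise was 2.1-fold with IL-1β (1.07 ± 0.13, adjusted p = 8.15e-08) and 1.5-fold with LPS (0.58 ± 0.14, adjusted p = 9.07e-04). Tnfrsf22 stood at 9.42, 9.09, 8.59 and 8.63 CPM in control libraries, at 6.34, 6.72, 7.42 and 7.14 CPM with IL-1β and at 8.05, 9.10, 9.86 and 9.03 CPM with LPS. Only its IL-1β libraries stood apart, below all the others. It fell by 22.8% with IL-1β (-0.37 ± 0.08, adjusted p = 4.28e-04), while with LPS its value was 0.01 ± 0.08 (adjusted p = 0.947). These genes are related in sequence, and how reads shared by related genes were counted is not given in the sources used here.

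Among the other death receptors, Tnfrsf21, the gene of DR6, stood at 11.2, 11.7, 11.7 and 11.99 CPM in control libraries, at 14.4, 16.3, 15.2 and 15.7 CPM with IL-1β and at 14.9, 14.0, 13.7 and 14.7 CPM with LPS. All treated libraries were above all control libraries. It rose by 32.4% with IL-1β (0.40 ± 0.06, adjusted p = 3.63e-06) and by 23.2% with LPS (0.30 ± 0.06, adjusted p = 2.29e-04). TRAIL and its death receptor were not called with either agent. Tnfrsf10b, the gene of DR5, stood at 20.9 ± 1.06 CPM in control libraries (SD, n = 4), 19.8 ± 0.688 with IL-1β and 21.0 ± 0.735 with LPS. Tnfsf10, the gene of TRAIL, stood at 5.41 ± 0.398, 5.04 ± 0.830 and 5.01 ± 0.777 CPM in the same order.

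Tnfrsf11b encodes osteoprotegerin, a secreted decoy for RANKL. It stood at 182, 181, 194 and 195 CPM in control libraries, at 154, 176, 157 and 171 CPM with IL-1β and at 140, 166, 156 and 179 CPM with LPS. Treated libraries lay below control libraries, with little room between the highest of one and the lowest of the other. It fell by 12.6% with IL-1β (-0.20 ± 0.07, adjusted p = 0.0463) and by 14.8% with LPS (-0.23 ± 0.07, adjusted p = 0.0240). Both calls were fragile. With IL-1β the call was lost in 11 of 19 alternatives, where values of the 19 ran from -0.23 to -0.14. These were library size alone (adjusted p = 0.104), no low-count filter (0.0559) and leaving out any control library (0.0570 to 0.107), IL-1β replicate 1, 3 or 4 (0.112, 0.109 and 0.0566) or LPS replicate 2 or 3 (0.0586 and 0.0664), all as adjusted p. With LPS it was lost without Control replicate 3 (-0.22, adjusted p = 0.0602), Control replicate 4 (-0.21, adjusted p = 0.0638) or LPS replicate 3 (-0.22, adjusted p = 0.0668). RANKL and its signalling receptor were barely present. Tnfsf11, the gene of RANKL, had 11 counts in all and was not kept, and Tnfrsf11a, the gene of RANK, had 5 to 16 counts per library and was not tested.

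The remaining receptors were low. Tnfrsf4, the gene of OX40, had 8 to 26 counts per library and values of 0.54 ± 0.30 with each agent (adjusted p = 0.144 with IL-1β and 0.145 with LPS). Tnfrsf19, the gene of TROY, had 5 to 14 counts and was not called either (0.26 ± 0.36 and 0.13 ± 0.36). Tnfrsf8, the gene of CD30, had 0 to 5 counts per library and was not tested. With 22 counts in all it was the row closest above the minimum of 20, and Tnfrsf13b, with 12, the closest below it.

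**Figure D3:**
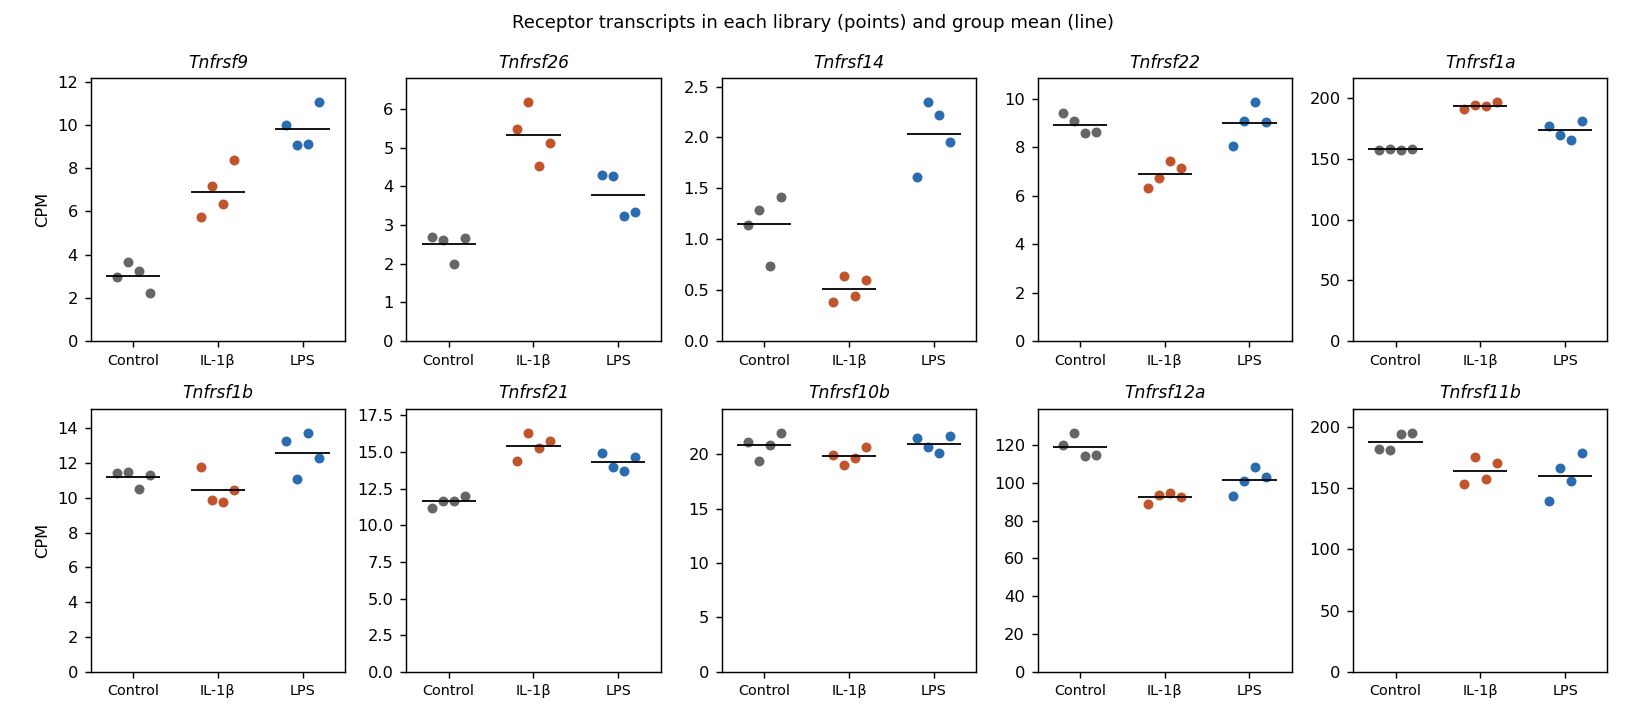
CPM (y axis, from 0) of 10 receptor transcripts in each library, with a point for each replicate in the order of its number and a line at the group mean. Tnfrsf9 rises from control through IL-1β to LPS, Tnfrsf14 is lowest with IL-1β and highest with LPS, and the ranges of Tnfrsf1a are narrow beside its level.

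The agents were then compared with each other, which asks whether a gene responded to them unequally and does not use the control libraries in the contrast. Of the 21 genes 8 were higher with LPS than with IL-1β, 3 were lower and 10 were not past the threshold. That is 52.4% called, beside 21.9% of all genes tested (11.3% higher and 10.6% lower). Libraries of the agents did not overlap for 10 of the 21, or 47.6%, beside 21.6% of all genes, and 1 of the 21, Tnfrsf14, was called with at least a 2-fold difference, beside 0.802%. The median log2 fold change of the 21 was 0.00, as over all genes. Without LPS replicate 3 the number higher was 5, and the genes no longer called were Tnfrsf12a (0.10, adjusted p = 0.0629), Tnfrsf1b (0.22, adjusted p = 0.0535) and Tnfsf13 (0.25, adjusted p = 0.0728).

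The widest difference was in Tnfrsf14, 3.97-fold higher with LPS (1.99 ± 0.22, adjusted p = 2.09e-07). Tnf was 1.89-fold higher with LPS than with IL-1β (0.92 ± 0.27, adjusted p = 0.0140), a call lost without IL-1β replicate 2 (0.75, adjusted p = 0.0642), the library with the lowest level. Tnfsf15 was 1.78-fold higher (0.83 ± 0.26, adjusted p = 0.0214), which was not called by DESeq2 (adjusted p = 0.0612), without IL-1β replicate 4 (0.78, adjusted p = 0.0563) or without LPS replicate 4 (0.65, adjusted p = 0.105). Tnfrsf9 was 1.43-fold higher (0.51 ± 0.11, adjusted p = 0.00191) and Tnfrsf22 1.30-fold higher (0.38 ± 0.08, adjusted p = 0.00115). For these 2 receptors each LPS library was above each IL-1β library.

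Smaller differences were seen in Tnfsf13 (0.29 ± 0.09, adjusted p = 0.0209), Tnfrsf1b (0.26 ± 0.08, adjusted p = 0.0129) and Tnfrsf12a (0.14 ± 0.04, adjusted p = 0.0160), all higher with LPS. Libraries of the 2 agents overlapped in Tnfrsf1b and Tnfrsf12a. Calls were also lost without IL-1β replicate 3 for Tnfsf13 (0.23, adjusted p = 0.0920) and Tnfrsf1b (0.23, adjusted p = 0.0512), and without IL-1β replicate 1 for Tnfrsf12a (0.12, adjusted p = 0.0579). Tnfrsf26 was lower with LPS (-0.49 ± 0.12, adjusted p = 0.00412), as were Tnfrsf1a (-0.16 ± 0.03, adjusted p = 1.37e-04) and Tnfsf12 (-0.20 ± 0.07, adjusted p = 0.0376). The call of Tnfsf12 was lost with DESeq2 (adjusted p = 0.0514) and without IL-1β replicate 2 (-0.17, adjusted p = 0.111), 3 (-0.19, adjusted p = 0.0829) or 4 (-0.19, adjusted p = 0.0827) or LPS replicate 3 (-0.15, adjusted p = 0.142). Tnfsf13b (-0.35 ± 0.17, adjusted p = 0.153) and Tnfsf18 (-0.23 ± 0.11, adjusted p = 0.144) were not past the threshold, although the IL-1β libraries lay above the LPS libraries for Tnfsf13b. Tnfsf9 missed it as well (0.42 ± 0.16, adjusted p = 0.0578), and was called without a low-count filter (0.42, adjusted p = 0.0433) and without LPS replicate 2 (0.53, adjusted p = 0.0153).

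**Figure D4:**
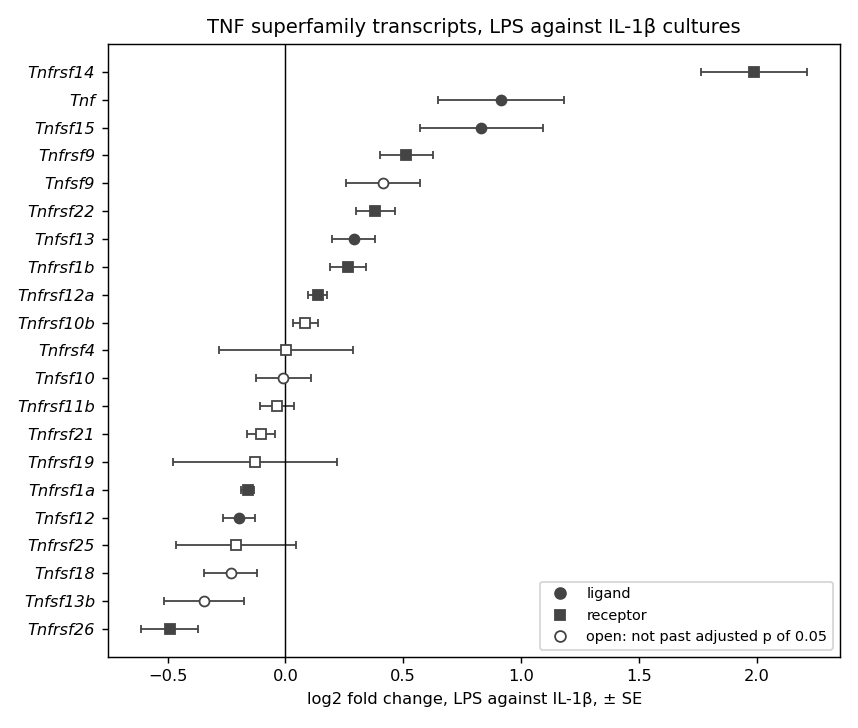
Log2 fold change of LPS against IL-1β cultures with its SE (x axis) for the 21 superfamily genes tested, circles for ligands and squares for receptors, filled where the adjusted p was under 0.05. Tnfrsf14 stands furthest to the right at 1.99 and Tnfrsf26 furthest to the left at -0.49.

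Several of these genes are known from leukocytes and endothelium, and markers of those cells moved with the treatments. In bulk RNA a smaller number of cells of a type and less RNA per cell cannot be told apart. Of 13 macrophage markers tested 8 fell and 2 rose with IL-1β, and 9 fell and 2 rose with LPS. As background for all marker counts, 24.7% of all genes rose and 23% fell with IL-1β, and 22.5% and 20% with LPS. Between the agents 11.3% were higher and 10.6% lower with LPS. The macrophage markers summed to 150 to 160 CPM in control libraries, 104 to 113 with IL-1β and 99.4 to 108 with LPS. Without Cd14, the most abundant of them, the sums were 117 to 124, 63.8 to 69.9 and 57.4 to 64.6 CPM. The 9 T cell markers summed to 15.4 to 16.9 CPM in control libraries, 7.60 to 9.03 with IL-1β and 8.15 to 9.24 with LPS, but the lower sum rested on Cd4, which rat macrophages are also known to express. Cd4 fell from a mean of 12.2 CPM to 4.41 with IL-1β and 5.04 with LPS, while the other 8 markers together stood at 3.76 to 4.25, 3.53 to 4.35 and 2.85 to 4.72 CPM, with overlapping ranges. Of the 4 T cell markers tested, Cd4 alone fell, and Cd8a rose with IL-1β from 0.740 to 1.09 CPM (0.56 ± 0.22, adjusted p = 0.0369). The call of Cd8a was lost without Control replicate 1, 3 or 4, without IL-1β replicate 2, 3 or 4 and in 3 other settings. The 5 B cell markers summed to 5.66 to 7.74, 3.80 to 5.03 and 3.43 to 4.72 CPM in the same order, with Pax5 at 0 in all control libraries and Cd79b at 0 in all LPS libraries. That sum rested on Cd79a, which fell with each agent from 6.18 to 3.89 and 3.56 CPM. The other 4 together stood at 0.468 to 0.626, 0.385 to 0.732 and 0.256 to 0.525 CPM, again overlapping. No neutrophil marker of 6 was tested, and their sum stayed under 1 CPM in every library. Endothelial markers rose in 12 of 12 with IL-1β and in 11 of 12 with LPS, from a sum of 195 to 227 CPM in control libraries to 412 to 466 and 288 to 386 CPM, and all 12 were lower with LPS than with IL-1β. That last count was 7 without IL-1β replicate 2, IL-1β replicate 4 or LPS replicate 4. The part of these cell types in the changes of Tnfsf13b, Tnfsf15, Tnfsf18, Tnfrsf9 and Tnfrsf14 was not tested. With each agent Tnfsf13b, Tnfsf18 and Tnfrsf9 rose, the summed macrophage level was lower than in control and the summed endothelial level was higher. The summed theca level was also higher with each agent, the granulosa sum was higher with IL-1β, and the smooth muscle sum was lower with each. Between the agents, Tnfrsf9 was higher with LPS (0.51 ± 0.11), while the endothelial markers were lower. Tnfrsf14 fell with IL-1β and rose with LPS. Macrophage markers did not all move alike. Those that rose were Cd14 and Cd163 with IL-1β, and Cd14 and Emr1 with LPS. Emr1 had means of 17.6 CPM in control libraries, 5.95 with IL-1β and 21.9 with LPS. No other of the 13 was called lower with IL-1β and higher with LPS, and 9 of the 13 fell with LPS. Of these, Lyz2 had means of 27.4, 13.4 and 7.97 CPM in the same order, and Csf1r of 9.87, 6.16 and 4.13 CPM. Sums without the most abundant gene of a list were computed after the data were seen.

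Other markers moved as well. The 5 smooth muscle markers all fell with both agents, from a sum of 4557 to 4950 CPM in control libraries to 1386 to 1593 with IL-1β and 1716 to 1972 with LPS. Granulosa markers summed to 338 to 404, 582 to 753 and 389 to 532 CPM in the same order, with 4 of 6 higher and 1 lower with IL-1β. Inha made up most of that sum, and without it the ranges of control and LPS libraries overlapped (81.4 to 103 and 84.4 to 114 CPM). With LPS 2 were higher and 1 lower, and the number higher was 1 without Control replicate 1 or LPS replicate 1, with the stricter filter and in a fit of these 8 libraries alone. Epithelial markers summed to 35.4 to 37.6, 19.7 to 21.0 and 15.4 to 22.0 CPM, with Krt7 of the 6 higher and Krt8 and Krt18 lower with each agent. The lower sum rested on Krt8 and Krt18. Krt8 had means of 16.65, 7.19 and 6.94 CPM in the same order, and Krt18 of 13.3, 3.31 and 3.27 CPM. Krt19, Cdh1 and Epcam were called with neither agent. With IL-1β the number of epithelial markers higher was 2 without IL-1β replicate 4. With LPS it was 0 or 2 without Control replicate 2, LPS replicate 3 or LPS replicate 4. Beside the shares of all genes given with the macrophage markers, the granulosa counts with LPS and the epithelial counts say nothing particular about these lists.

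Members of the superfamily that carry other symbols were taken as a list of 16, which also held the adaptor Edaradd and the TRAF-interacting Traip. Of 12 tested 3 rose and 4 fell with IL-1β (median 0.02), and 2 rose and 3 fell with LPS (median 0.10). Of all genes tested, 24.7% rose and 23% fell with IL-1β, and 22.5% rose and 20% fell with LPS. Beside these shares the counts say nothing particular about the list. Fas, the death receptor that binds FasL, rose 1.51-fold with IL-1β, from 14.1 to 21.4 CPM (0.59 ± 0.06, adjusted p = 3.95e-09). It rose 2.33-fold with LPS, to 33.0 CPM (1.22 ± 0.06, adjusted p = 3.13e-16). Cd70, a ligand of lymphocyte costimulation, rose with LPS (0.79 ± 0.15, adjusted p = 7.96e-05) and stood at -0.01 ± 0.17 with IL-1β. Eda, the ectodysplasin gene, rose with IL-1β (0.36 ± 0.10, adjusted p = 0.00318). Traip fell with IL-1β (-0.28 ± 0.10, adjusted p = 0.0221) and LPS (-0.27 ± 0.10, adjusted p = 0.0297). These calls of Traip were lost with library size alone (adjusted p = 0.0573 and 0.0599), without IL-1β replicate 4 (-0.22) and, for LPS, without Control replicate 3 (-0.26) or 4 (-0.27) or LPS replicate 1 (-0.23), 2 (-0.25) or 4 (-0.27), with no low-count filter and with DESeq2. The other genes that fell were Cd40, Ngfr and Eda2r, named after their values were seen. Cd40, the receptor of CD40 ligand, stood at 2.08 ± 0.280 CPM in control libraries (SD, n = 4), 0.980 ± 0.176 with IL-1β and 1.40 ± 0.355 with LPS. It fell with IL-1β (-1.08 ± 0.20, adjusted p = 4.52e-05) and with LPS (-0.56 ± 0.18, adjusted p = 0.0131), the latter call being lost without Control replicate 4 (-0.48, adjusted p = 0.0591) or LPS replicate 4 (-0.39, adjusted p = 0.0779). Ngfr, the p75 neurotrophin receptor, fell with LPS (-0.93 ± 0.17, adjusted p = 7.85e-05). Its value with IL-1β (-0.40 ± 0.17, adjusted p = 0.0491) lost the call in 10 alternatives, among them leaving out Control replicate 2 or 4, IL-1β replicate 3 or 4, or LPS replicate 1, 2 or 4. Eda2r, an ectodysplasin receptor, fell with IL-1β (-0.27 ± 0.09, adjusted p = 0.0135), a call lost without IL-1β replicate 4 (-0.22, adjusted p = 0.0571). With library size alone the number lower in this list with IL-1β was 2. It was 1 without IL-1β replicate 4 in the first comparison, and 1 without Control replicate 4 or LPS replicate 4 in the second.

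Genes that act just below the receptors changed in part. Of 30 adaptors, kinases and their inhibitors tested, 11 rose and 6 fell with IL-1β (median 0.08). With LPS 11 rose and 3 fell (median 0.09). Over all genes 24.7% rose and 23% fell with IL-1β, and 22.5% and 20% with LPS, with a median of 0.01 in both. Traf1, an adaptor of TNFR2 and CD137, rose 2.51-fold with IL-1β (1.33 ± 0.11, adjusted p = 8.84e-11) and 3.73-fold with LPS (1.90 ± 0.11, adjusted p = 1.26e-14). Tnfaip3, the gene of the deubiquitinase A20, rose 2.38-fold with IL-1β and 4.13-fold with LPS. Birc3, the gene of the ubiquitin ligase cIAP2, rose by 0.81 ± 0.05 and 1.39 ± 0.05 on the log2 scale. Tnip1, which encodes a partner of A20, rose by 0.86 ± 0.03 and 1.09 ± 0.03. Of the 30, 11 were higher and 2 lower with LPS than with IL-1β, beside 11.3% and 10.6% of all genes. Among those higher were Traf2, Birc3, Birc2 and Tnip1 (0.25 ± 0.04, 0.58 ± 0.04, 0.33 ± 0.04 and 0.23 ± 0.03). Birc2, the gene of cIAP1, fell against control with both (-0.64 ± 0.04 and -0.31 ± 0.04), as did the kinase Map3k14 of the non-canonical NF-kB arm (-0.33 ± 0.10 and -0.28 ± 0.10). The LPS call of Map3k14 was lost without Control replicate 1, 2 or 4 or LPS replicate 4 (adjusted p = 0.0553, 0.0762, 0.0590 and 0.0670). Traf2, Birc2 and Map3k14 are named here after their values were seen.

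Of 11 NF-kB subunits and inhibitors 10 rose and 0 fell with either agent, with Nfkbid not past the threshold, and the median was 0.54 with IL-1β and 0.92 with LPS. Relb, the partner of p52 in the non-canonical arm, rose by 0.94 ± 0.04 and 1.31 ± 0.04, Nfkbiz by 1.73 ± 0.06 and 2.12 ± 0.06, and Bcl3 by 2.35 ± 0.06 with each. Of the 11, 7 were higher with LPS than with IL-1β and 0 lower, beside 11.3% and 10.6% of all genes. Among 10 genes listed for ligand shedding and capture, a list that also held Tnfaip6, 4 rose and 5 fell with IL-1β and 5 rose and 5 fell with LPS. The shares of all genes given above for the adaptors are the background here and for the NF-kB genes as well. Rhbdf2, which encodes iRhom2, the carrier of the TNF-cleaving protease ADAM17, rose 2.24-fold with IL-1β (1.16 ± 0.06) and 2.52-fold with LPS (1.33 ± 0.05). Tnfaip6, whose product binds hyaluronan, rose by 1.52 ± 0.10 and 1.57 ± 0.10, and the protease gene Mmp14 fell by 0.57 ± 0.03 and 0.41 ± 0.03 on the log2 scale.

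**Figure D5:**
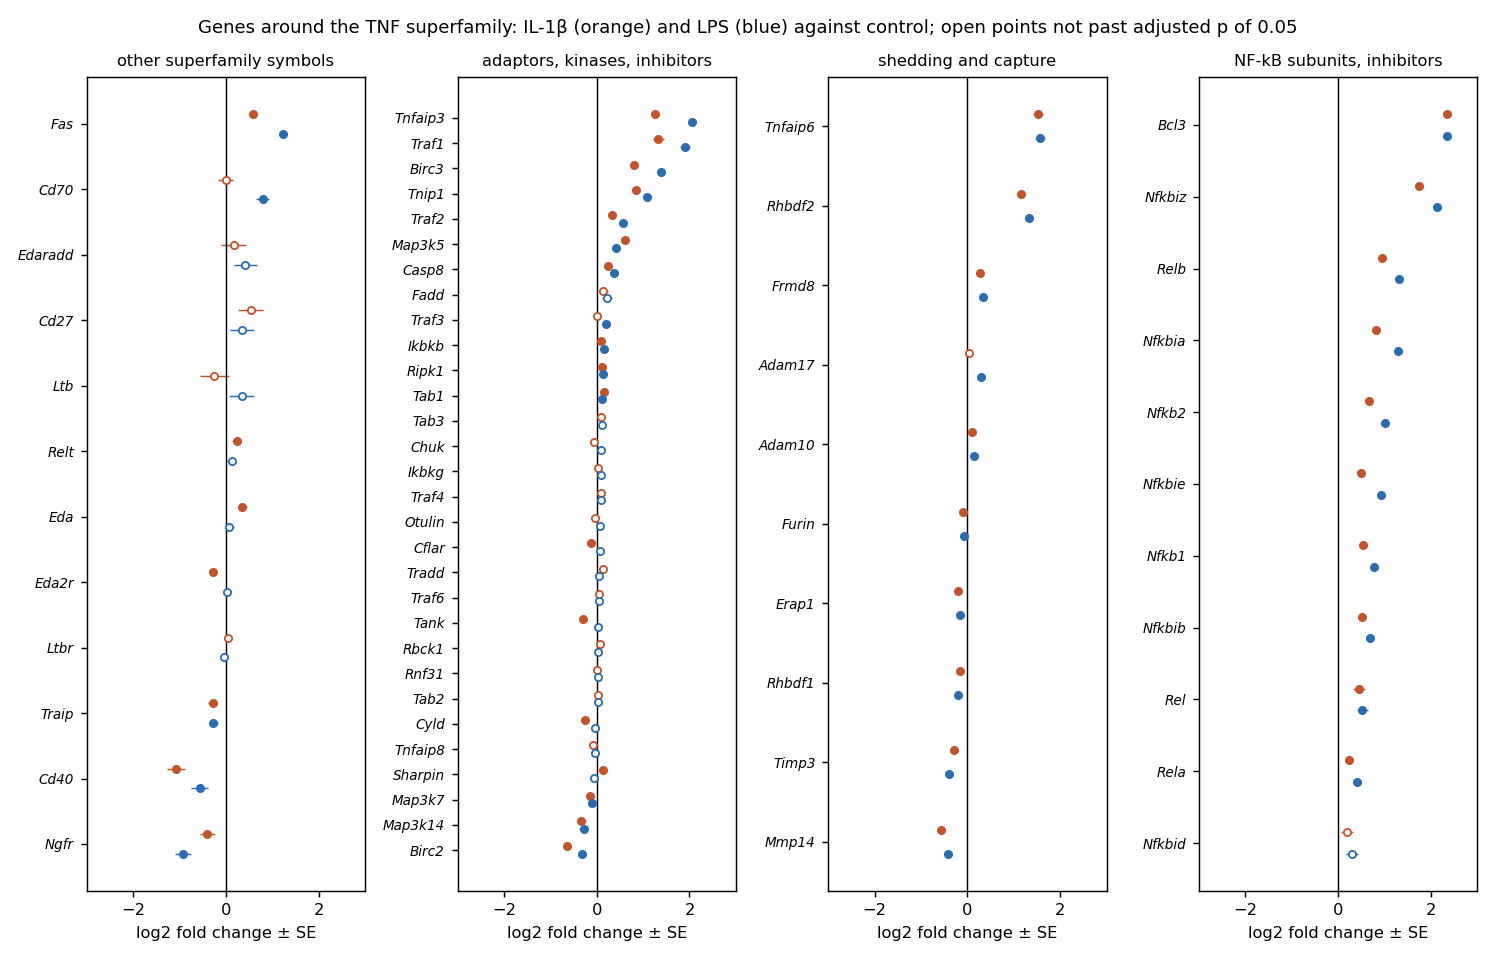
Log2 fold change against control with its SE (x axis) for genes around the superfamily in 4 panels, with IL-1β in orange and LPS in blue, filled where the adjusted p was under 0.05. In the NF-kB panel 10 of 11 genes lie to the right as filled points with both agents, while the panel of adaptors and kinases holds many open points near 0.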

How the data were processed

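Transcripts were counted in 12 libraries, 4 per group. Per the labels' protocols, RNA was made into stranded TruSeq mRNA libraries and sequenced on an Illumina HiSeq. The authors deposited raw read counts per gene symbol, without normalization. Alignment and analysis tools named in the submitters' processing notes are TopHat2 (version 2.1.1), SAMtools and DESeq2, and the build is Rnor_6.0. The counting program, its strand setting and the annotation are not given in the sources used here.

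Counts were analysed in R 4.3.3 with edgeR 4.0.16 (filterByExpr, TMM, glmQLFit with robust fitting, 1 model of the 3 groups, two-sided F-tests, Benjamini-Hochberg over all 17330 genes). edgeR put the biological coefficient of variation at 3.79%. The SE of a fold change is the absolute log2 fold change divided by the square root of F. Counts were simulated from the means, library sizes and edgeR dispersions of the deposited table, with 200 genes changed between IL-1β and Control. Of 50 genes changed 1.25-fold 72% were called, with 82% at 1.5-fold, 90% at 2-fold and 100% at 4-fold. There were 5 false calls among 17307 genes. Far more genes were called in the data (47.7% with IL-1β), so these rates need not hold there.

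All 27 members are named. Of 4 pathway lists, the 3 called genes with the largest change per treatment and a mean of at least 2 CPM are named. Members and lists were chosen with earlier results of these data known. No member row was nearly identical to another row (correlation of 0.995 and a log2 level within 0.15, for rows with a mean of at least 50 counts). Alternatives were other scalings, filters, DESeq2 1.42.0, fits on 8 libraries, a replicate block and leaving out each library.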

Additional observations from a re-analysis of the deposited data

Results flagged for a closer look

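In 123 groups of 4 libraries, 1 for each treatment group of the 41 genes checked, a library was set apart when its gap to the nearest other divided by the range of the group exceeded Dixon's critical value. Chance alone gives this in about 1 of 20 groups, and 5 were found. For Tnfrsf26, Control replicate 3 stood at 2.00 CPM beside 2.61 to 2.70 CPM in the other control libraries. For Tnfsf12, LPS replicate 3 stood at 12.5 CPM beside 14.2 to 14.4 CPM in the other LPS libraries. Traip stood at 5.61 CPM in Control replicate 3 beside 5.33 to 5.37 CPM, and Bcl3 at 8.19 CPM in Control replicate 1 beside 6.65 to 6.91 CPM. Cd40 stood at 0.875 CPM in LPS replicate 4 beside 1.54 to 1.61 CPM, and without that library it was higher with LPS than with IL-1β (0.69, adjusted p = 0.0151).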

How the results depend on the processing

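Over 21 genes and 3 comparisons there were 63 log2 fold changes, of which 33 were called. None changed direction with a call in any alternative, 25 of the 33 kept call and direction in every one, 8 lost the call in at least 1, and 2 of the uncalled gained one. The number of members higher with LPS than with IL-1β ran from 5 to 9 over the fits that left out 1 library. The other counts of members and of all genes stayed within 1.5 times the reported ones in every alternative. Tnf, Tnfsf15 and other low genes got no value from the stricter filter (at least 1 CPM in 4 libraries), which removed some of them. With a replicate block 8544, 7730 and 4256 genes were called with IL-1β, with LPS and between them, against 8261, 7358 and 3791 without it, and no call of a member changed. Of 12 same-numbered pairs 3 had correlated deviations above 0.1 (range 0.00351 to 0.185), and pairs with different numbers ran from -0.14 to 0.0918. The same number gave the highest correlation in 7 of 12 cases. These values do not settle whether same-numbered libraries share an origin, and the labels do not say. The reported fit did not pair them, and the replicate block is the alternative that does. At these depths 3 counts equal 0.0952 to 0.146 CPM, and changes that stay near that level can be missed. A large rise from it could be called, as for Cd163 with IL-1β, from a mean of 0.0521 to 0.761 CPM.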
